A study of Homo sapiens with 8 samples.

Results

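The comparison covered 4 of the 8 expression arrays made from ALL-SIL, a cell line established from T-cell acute lymphoblastic leukemia (T-ALL): 2 arrays of cells carrying a lentiviral short hairpin RNA against TLX1 and 2 of cells carrying the pLKO.1-puro control hairpin vector. The 4 arrays were chosen by their sample titles. Both groups were puromycin-selected, and the labels name a single hairpin, so an effect of TLX1 and an effect of that hairpin on other transcripts cannot be told apart. RNA was taken early, before apoptosis, per the labels. The other 4 arrays of the study held ALL-SIL cells transduced with a vector for both T-cell receptor (TCR) chains and GFP. Of these, 2 arrays, titled as without TCR activation, had no co-culture. The other 2, titled as after TCR activation, followed 48 h on OP9-DL1, murine stroma engineered to show cells the Notch ligand DL1. All 4 carried another vector. Their levels are given beside some genes, and they enter a fit only in the 8-array model named as such. The labels do not say whether 2 replicates were 2 cultures, so a p-value here reflects how these arrays varied, and that variation may be technical.

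TLX1 is a homeobox transcription factor that is silent in normal T-cell development and is switched on in a subset of T-ALL through translocations to a T-cell receptor locus. TLX1-positive leukemias are arrested at the cortical thymocyte stage, when a T-cell precursor rearranges its receptor genes and displays CD1 molecules. TLX1 is known to act largely as a repressor, together with ETS1 and RUNX1, at T-cell genes that include the receptor alpha locus. A hairpin lowers a transcript by RNA interference, so the first value to look at is the transcript of TLX1 itself.

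Values are log2 probe set values, so a difference of 1 is a 2-fold difference. Genes were compared by their brightest probe set with 1 gene symbol, and 11789 genes lay above the median of all array values, 5.296. The groups of a gene are called separated when both arrays of one lie above both of the other, and the gap is the distance between the nearest arrays of the 2 groups. With 2 arrays against 2, the smallest p that an exact 2-sided permutation test can give is 0.333, so the test was limma's, which borrows the spread of other probe sets.

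The TLX1 probe set read 8.66 and 8.27 in control hairpin arrays 1 and 2, and 7.98 and 7.88 in TLX1 hairpin arrays 1 and 2. Both TLX1 hairpin arrays lay below both controls, with a gap of 0.29. The difference of the means was -0.53 (95% interval -0.98 to -0.09), a 1.45-fold lower level, with a Benjamini-Hochberg adjusted p of 1.00 over 41097 probe sets. Against control 2 alone the difference was -0.34, and against control 1 alone -0.73. In the 4 arrays of the TCR experiment TLX1 read 8.57 to 8.70, on the side of control 1. The direction matched the labels, and the transcript was still well above the array median in the TLX1 hairpin arrays. The labels' protocol names a Western blot of the TLX1 protein, which was not analysed here.

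None of the 41097 probe sets passed an adjusted p of 0.05 in limma's fit of the 4 arrays (0%). The smallest adjusted p was 0.225, shared by 1 probe set each of ID2 and SLFN5. At an unadjusted p under 0.05 the fit held 606 probe sets higher (1.47%) and 733 lower (1.78%) in the TLX1 hairpin arrays. By separation alone, 1615 of 11789 genes were higher (13.7%) and 1708 were lower (14.5%), with a median difference over all genes of -0.0024. In either direction 28.2% were separated. Where groups do not differ, 2 arrays against 2 separate in a share of 0.333, so separation by itself does not set a gene apart. Of the separated genes, 30 were at least 2-fold higher (0.254%) and 50 at least 2-fold lower (0.424%). The values below therefore describe these 4 arrays, and no gene named was called by this test. Without control 1, 150 probe sets passed, with control 2 assumed to vary like the TLX1 hairpin pair; without any other single array 0 passed. The 2-fold counts became 119 higher and 171 lower without control 1, and 23 and 20 without control 2, when 16 of the 30 and 9 of the 50 were among them.

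The control arrays were less alike than the TLX1 hairpin arrays. They correlated at r = 0.986 over all probe sets, against 0.993 for the TLX1 hairpin pair, and control 1 correlated at 0.994 with TLX1 hairpin 1. The median SD over genes was 0.181 in the control group and 0.113 in the TLX1 hairpin group. Of the 50 genes at least 2-fold lower, 28 were also at least 2-fold higher in control 2 than in control 1, against 0 of the 30 higher genes. At least 2-fold against each control array taken singly were 13 of the 30 higher and 5 of the 50 lower genes. The T-lineage check held, with 14 of 14 T-lineage markers above the median. Of these, CD1A, CD1B and CD2 were rows with at most 5 decimals, described in the next paragraph. All such rows lay above the median, so the check rests on the other 11 markers. Of other cell types' markers, 4 of 10 for B cells, 5 of 17 for myeloid cells, 5 of 8 for NK cells and 10 of 15 for fibroblast and kidney lines were above it. Of all 19775 genes with a probe set, 11789 were above it. The list means were 5.16 to 5.24, 4.47 to 4.63, 5.68 to 6.05 and 5.80 to 5.97 over the 4 arrays. MS4A1, CD14, LYZ and GNLY lay below the array median. Others of these lists lay well above it, among them CD79A (7.1 to 8.2) and MPO (7.8 to 8.2). The MPO value came from a 5-decimal row, a kind whose means all lay between 7.23 and 8.93. NKG7 read 10.15 to 11.38 and VIM 11.13 to 12.52.

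A further property of the table touches several genes below. Of its 54675 rows, 172 carry at most 5 decimals, while the others carry 8 or 9. In 140 of these 172 rows, the differences between arrays equal those of another such row within 2e-05, in 49 sets of up to 8 rows; no other row shared its differences, checked at 3 decimals. Their means over the 4 arrays lay between 7.23 and 8.93, against 2.24 to 14.3 for the other rows. Of those with 1 symbol, 51.8% had separated groups, against 30% of the other probe sets. Rows that repeat the same differences count singly in the first share. Their origin was not tested. Genes represented by such a row are marked below as 5-decimal rows. They were 4 of the 30 genes at least 2-fold higher and 8 of the 50 lower, which leaves 26 and 42. Of the genes at least 2-fold apart from each control array, 2 of the 13 higher and 3 of the 5 lower were such rows.

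**Figure D1:**
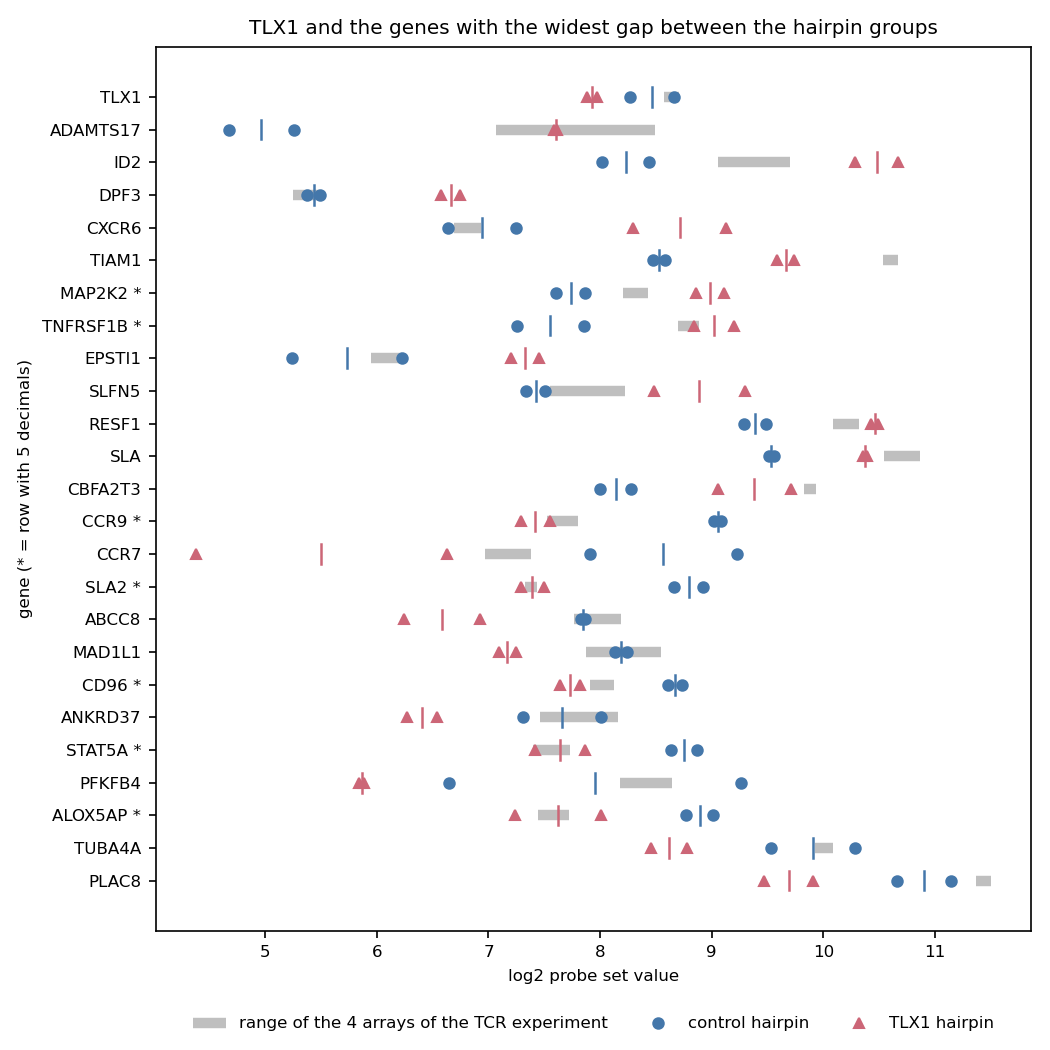
Log2 probe set value (x axis) of TLX1 and of the 12 higher and 12 lower genes with the widest gap (y axis), 1 point per array, with group means as ticks and the range of the 4 TCR experiment arrays as a grey bar. An asterisk marks a 5-decimal row, 2 of the higher and 5 of the lower genes; the TLX1 hairpin arrays of CCR7 lie 2.25 apart and the control arrays of PFKFB4 2.61.

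The genes with the widest gaps above control were led by ADAMTS17 and ID2. ADAMTS17, a secreted metalloprotease of the extracellular matrix, read 5.26 and 4.68 in the controls and 7.59 and 7.62 in the TLX1 hairpin arrays. That is a difference of 2.64 (SE 0.22, adjusted p = 0.352), with both controls below the array median. The gene was kept above the median by its TLX1 hairpin arrays alone. The table holds no detection call, so how far the controls lay below is uncertain. The size of the difference, its SE and its p are uncertain with it. A second probe set of the gene was also separated, by 1.51. Of the 19 ADAMTS genes listed, 4 were above the median and ADAMTS17 was the one that was separated. The TCR experiment arrays read 7.07 to 8.49, on the side of the TLX1 hairpin. For the 30 genes at least 2-fold higher, they lay on that side in 16, on the control side in 8 and between in 6. For the 50 lower genes the counts were 9, 37 and 4. The genes on the TLX1 hairpin side included 5-decimal rows: TNFRSF1B, TRAF1 and PIK3R6 among the higher, and CCR9, SLA2, STAT5A, ALOX5AP and CHUK among the lower. Arrays of the 2 experiments correlated at 0.942 to 0.951, against 0.986 to 0.994 among the hairpin arrays. A difference between the experiments may enter these positions and was not tested.

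ID2 encodes an inhibitor that binds E proteins, the basic helix-loop-helix factors that drive early T-cell development, and keeps them off DNA. Its brightest probe set read 8.44 and 8.02 in the controls and 10.67 and 10.28 in the TLX1 hairpin arrays. The difference was 2.25 (SE 0.22, adjusted p = 0.491), or 4.75-fold. The second ID2 probe set read 6.54 and 6.52 against 8.58 and 8.52, a difference of 2.02 (adjusted p = 0.225). The arrays of each group lay close together and far from the other group, which a choice by widest gap favors. The TCR experiment arrays, at 9.06 to 9.70, fell between the groups.

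Other members of the E and ID protein family did not share the size of that difference. TCF12, an E protein, was separated by 0.25, while TCF3, ID1, ID3 and ID4 overlapped. ID1 read 9.06 and 10.10 in the controls against 8.67 and 9.32, and ID3 read 10.22 and 9.29 against 9.48 and 9.48. The family's median difference was -0.05 over 6 genes.

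SLFN5, a Schlafen-family gene with interferon-responsive members and a place in the list of quiescence genes, was measured by 6 probe sets above the median. All 6 were separated and higher, by 1.47 to 2.69. The brightest read 7.34 and 7.51 against 8.48 and 9.30, and the one with the largest difference 6.91 and 6.62 against 9.28 and 9.63 (adjusted p = 0.225). In the TCR experiment the brightest read 7.56 to 8.23, between the groups.

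**Figure D2:**
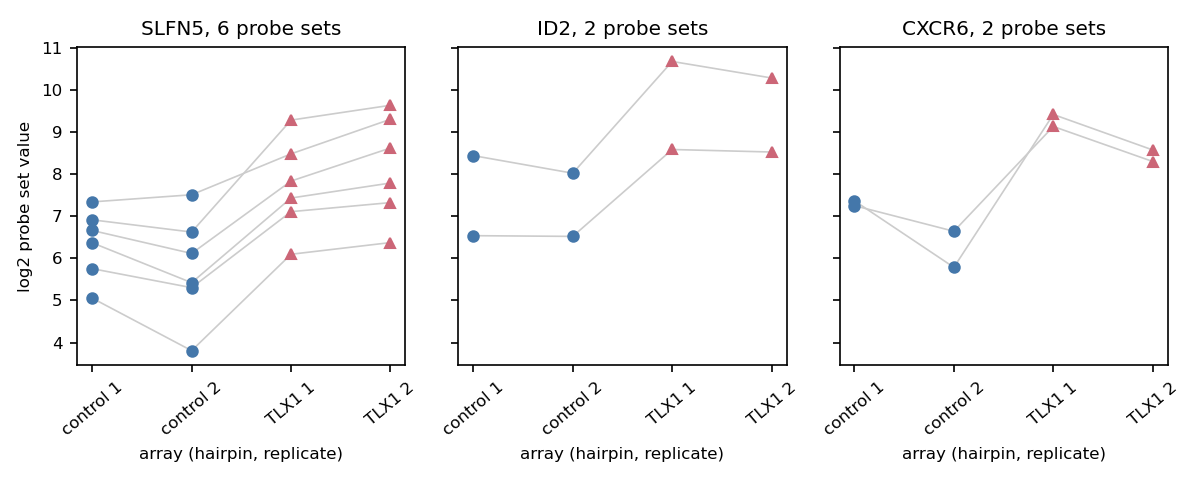
Log2 value (y axis) of every above-median probe set of SLFN5, ID2 and CXCR6 in the 4 arrays (x axis), lines joining a probe set. All 6, 2 and 2 probe sets have both TLX1 hairpin arrays above both controls.

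CXCR6, a chemokine receptor of effector and resident T cells, read 7.25 and 6.64 against 9.13 and 8.30. The difference was 1.77 (SE 0.33, adjusted p = 1.00), and a second probe set differed by 2.42. EPSTI1, an interferon-induced gene, read 6.23 and 5.24 against 7.45 and 7.21. Both genes were named for their wide gaps, so a larger difference between the groups than within them follows from that choice. The control arrays of EPSTI1 lay 0.98 apart.

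Signalling and chromatin genes made up most of the rest. TIAM1, which loads the GTPase RAC1, read 8.58 and 8.47 against 9.58 and 9.74. DPF3, a reader subunit of the BAF chromatin remodelling complex, read 5.49 and 5.38 against 6.58 and 6.74. CBFA2T3, a corepressor of hematopoietic factors, read 8.28 and 8.00 against 9.05 and 9.71. The differences were 1.14, 1.23 and 1.24, and the TLX1 hairpin arrays of CBFA2T3 lay 0.66 apart. The second above-median probe sets of TIAM1 and DPF3 were also separated, but differed by 0.57 and 0.65, less than 2-fold. RESF1 differed by 1.07 and SLA, an adaptor that dampens TCR signalling, by 0.84, with both above-median probe sets of each separated.

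The remaining higher genes of the 12 were 5-decimal rows. TNFRSF1B, a receptor for tumor necrosis factor, read 7.86 and 7.25 against 9.19 and 8.84. MAP2K2, a kinase of the MAP kinase cascade, read 7.86 and 7.61 against 8.86 and 9.11, and its 3 probe sets were such rows and gave the same difference, 1.25.

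CCR7, which guides T cells to lymph nodes and through the thymus, read 7.91 and 9.23 in the controls and 4.38 and 6.63 in the TLX1 hairpin arrays. The difference, -3.06 (SE 0.78, adjusted p = 1.00), ran from -4.19 to -1.94 when 1 array was left out. The groups did not overlap, but the controls lay 1.32 apart and the TLX1 hairpin arrays 2.25, with TLX1 hairpin 1 below the array median, so its size is loosely fixed. CCR4 read 6.51 and 6.13 against 5.54 and 5.23, while CXCR3, a receptor of effector T cells, read 5.59 and 5.93 against 6.46 and 7.17, and CCR8 7.65 and 7.18 against 7.65 and 7.80. CCR9, the thymus and gut homing receptor, read 9.02 and 9.09 against 7.55 and 7.29, from a 5-decimal row. Over the 17 homing and adhesion receptors tested, 3 were separated higher and 3 lower, with a median difference of 0.0013. For all genes the separated shares were 13.7% and 14.5%.

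Among the other lower genes, ABCC8, a regulatory subunit of potassium channels, read 7.83 and 7.86 against 6.24 and 6.93, and its second probe set overlapped. MAD1L1, of the spindle checkpoint, read 8.14 and 8.24 against 7.25 and 7.09. TUBA4A, an alpha-tubulin, read 9.53 and 10.29 against 8.45 and 8.78, and PLAC8 read 10.66 and 11.14 against 9.47 and 9.91. These 4 genes differed by -1.26, -1.02, -1.29 and -1.21. SLA2, CD96, STAT5A and ALOX5AP were 5-decimal rows, with differences of -1.40, -0.94, -1.11 and -1.27.

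The promoters of 10 of the 12 higher and 9 of the 12 lower genes were listed by RefSeq (GRCh38.p14). Homeodomain proteins bind a TAAT core, and RUNX1 binds TGTGGT; both were searched on both strands in 300 bases around each start, of which a gene can have several. TAAT occurred in 5.0 of the 13.0 promoters of higher genes and 7.0 of the 13.0 of lower genes, against 50.2% of 35116 promoters. TGTGGT occurred in 3.0 and 2.0, against 13.1%. The promoters below are those of the leading higher genes, one without and one with TAAT, and of the lower gene with the most matches at a start, with TAAT or its complement ATTA in capitals. A match describes the letters only.
ID2 promoter, chr2:8681806-8682105, plus strand: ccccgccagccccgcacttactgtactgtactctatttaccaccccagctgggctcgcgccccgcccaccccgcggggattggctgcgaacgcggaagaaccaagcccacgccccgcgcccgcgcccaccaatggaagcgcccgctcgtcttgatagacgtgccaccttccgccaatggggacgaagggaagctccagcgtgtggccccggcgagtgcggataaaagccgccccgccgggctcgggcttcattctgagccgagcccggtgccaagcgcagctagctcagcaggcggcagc
ADAMTS17 promoter, chr15:100341926-100342225, minus strand: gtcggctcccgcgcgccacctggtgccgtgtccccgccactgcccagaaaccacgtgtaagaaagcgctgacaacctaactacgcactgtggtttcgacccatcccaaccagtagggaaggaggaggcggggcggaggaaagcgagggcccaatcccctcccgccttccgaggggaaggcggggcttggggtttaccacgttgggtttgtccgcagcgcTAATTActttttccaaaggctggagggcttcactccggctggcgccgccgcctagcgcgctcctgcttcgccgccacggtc
PLAC8 promoter, chr4:83114680-83114979, minus strand: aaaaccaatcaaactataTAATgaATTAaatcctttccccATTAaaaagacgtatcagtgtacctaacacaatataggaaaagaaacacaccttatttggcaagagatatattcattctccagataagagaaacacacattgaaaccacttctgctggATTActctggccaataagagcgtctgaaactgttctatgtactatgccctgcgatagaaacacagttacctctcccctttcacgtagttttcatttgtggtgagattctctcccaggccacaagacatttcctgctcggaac

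The ID2 window held 0 copies of TAAT, that of ADAMTS17 held 2, which overlap, and that of PLAC8 held 4.

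**Figure D3:**
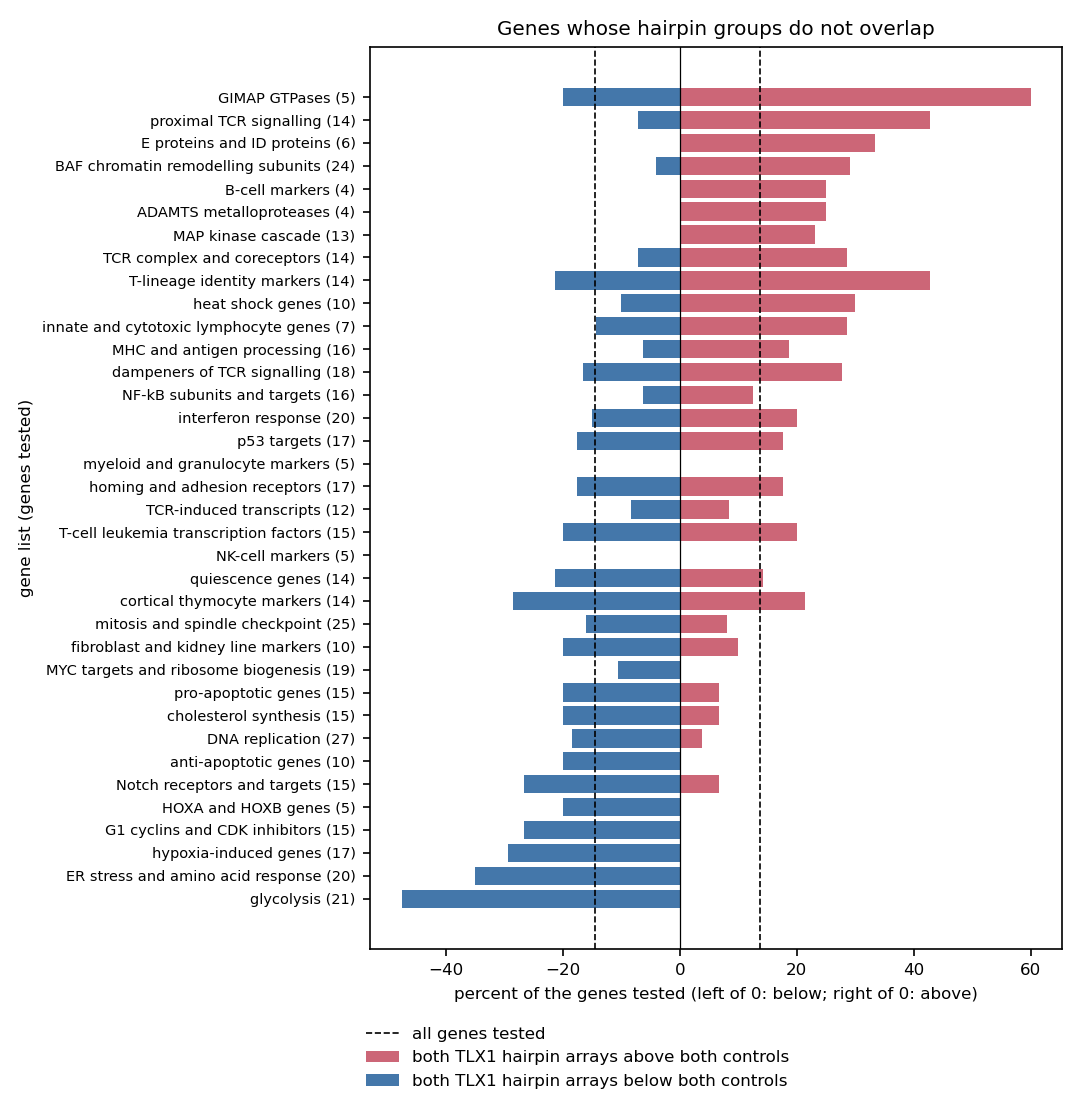
Percent of the genes tested in each gene list shown (y axis, number tested in brackets) with both TLX1 hairpin arrays above (right of 0) or below (left) both controls; dashed lines give the same over all genes, 13.7% and 14.5%. Glycolysis reaches furthest left, with 10 of 21 genes, and the GIMAP list, with 3 of 5, furthest right.

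The 37 gene lists held 691 different genes, of which 487 were tested, and 0 members passed the threshold. List medians ran from -0.80 for hypoxia-induced genes to 0.56 for the GIMAP GTPases. The GIMAP median was 0.13 against control 1 alone and 0.99 against control 2 alone. Control 2 was above control 1 in 0 of its 5 genes. Over all genes tested, 13.7% were separated higher and 14.5% lower, and each count of list members below is to be read beside these shares. A count near them is no result about a list. The lists and the median give a description of these arrays, with no test of a list.

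Of 14 proximal TCR signalling genes, 6 were separated higher and 1 lower, against 13.7% and 14.5% of all genes, with a list median of 0.17. PRKCQ, the kinase that links the receptor to NF-kB, read 8.87 and 8.80 against 9.42 and 9.36. LCK, the first kinase of the cascade, read 11.33 and 11.19 against 11.50 and 11.70. SH2D2A and RASGRP1 differed by 0.49 and 0.33, and VAV1 by -0.16. The 7 separated genes differed by less than 2-fold; TXK differed by 1.10 but overlapped, at 7.50 and 5.29 against 7.77 and 7.22.

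Of 14 genes of the TCR complex and its coreceptors, 4 were separated higher, 1 was lower and 9 overlapped, with a median of 0.10. CD3D and CD3E overlapped, at 13.10 and 12.86 against 13.23 and 13.01 for CD3D. CD247 read 11.10 and 10.47 against 11.50 and 11.29, and CD3G read 9.15 and 8.48 against 9.53 and 9.27. CD8A read 8.38 and 8.70 against 9.14 and 8.91. In the last 3 genes named both control arrays were lower. The controls of CD3G lay 0.67 apart, and in CD247 as in CD3G control 2 was the lower control. The median of the TCR complex list was 0.04 against control 1 alone and 0.29 against control 2 alone. T-lineage identity markers were separated higher in 6 of 14 and lower in 3; the 3 lower ones, CD1A, CD1B and CD2, were 5-decimal rows. Without such rows 6 of 11 were higher and 0 lower, and the median went from 0.15 to 0.29.

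In the cortical thymocyte list the lower genes were such rows. Of 14 genes, 3 were separated higher and 4 lower, and the 4 lower ones were CD1A, CD1B, CD1E and RAG1. In RNA of a whole culture, fewer cells of a kind and less RNA per cell cannot be told apart. CD1A, a defining marker of that stage, read 9.04 and 8.83 against 8.11 and 7.84, and RAG1, a subunit of the recombinase, read 8.72 and 9.08 against 7.85 and 8.14. Without such rows 3 of 10 were higher, DNTT, CD38 and CD8A, and 0 were lower. DNTT, which adds bases at receptor gene joints, read 5.93 and 5.81 against 6.18 and 7.29.

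Of 15 leukemia transcription factors tested, 3 were separated higher, ETV6, BCL11B and PHF6, and 3 lower, TLX1, LYL1 and MYCN. BCL11B, a guardian of T-cell identity, read 11.09 and 11.35 against 11.37 and 12.01. MYC and MYB overlapped, with differences of 0.08 and 0.15, and so did GATA3, at 11.63 and 12.25 against 11.66 and 12.47. TLX3, the close relative of TLX1, was below the array median, at 3.52 and 3.61 against 3.57 and 3.50.

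Of Notch genes, DTX1 read 8.89 and 8.19 against 9.57 and 9.37, while HES1, a direct Notch target, read 8.10 and 8.66 against 7.51 and 7.99. The 15 genes held 1 higher and 4 lower, and NOTCH1, among the lower, was a 5-decimal row. EOMES, a T-box factor of cytotoxic lymphocytes, read 7.56 and 7.24 against 8.23 and 8.56. Of 7 innate and cytotoxic genes, 2 were higher and 1, TBX21 from a 5-decimal row, was lower.

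Of BAF subunits, 7 of 24 were higher and 1, PHF10, lower, against 13.7% and 14.5% of all genes. Besides DPF3 the higher subunits differed by 0.16 to 0.31. Of the GIMAP GTPases, which support lymphocyte survival, GIMAP7 read 10.58 and 8.87 against 10.90 and 10.70. Control 2 stood apart, and the difference was 0.23 against control 1 and 1.93 against control 2.

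The counts of this paragraph stand beside 13.7% of all genes separated higher and 14.5% lower. Of 27 DNA replication genes 1 was higher and 5 lower. GINS1, of the replicative helicase, read 10.53 and 10.52 against 9.98 and 9.77. Of 15 G1 cyclins and CDK inhibitors 0 were higher and 4 lower, among them CCND3, at 11.80 and 12.10 against 11.42 and 11.49. Of 25 mitosis genes 2 were higher and 4 lower, and of 19 MYC targets and ribosome genes 0 and 2. Pro-apoptotic genes held 1 higher and 3 lower of 15, and anti-apoptotic genes 0 and 2 of 10, with MCL1 differing by -0.21. Of 17 p53 targets 3 were higher and 3 lower. KLF6, a quiescence gene, read 11.38 and 11.45 against 10.67 and 10.47.

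Of 20 interferon-response genes 4 were higher and 3 lower, against 13.7% and 14.5% of all genes, with a list median of 0.08. IFIT2 read 5.84 and 5.75 against 6.23 and 6.28. Antigen presentation genes were higher in 3 of 16, TAP2, ERAP1 and B2M, and lower in 1. Of 16 NF-kB genes, the 2 higher ones, TRAF1 and NFKB2, were 5-decimal rows, so that 0 of 12 were higher without them.

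**Figure D4:**
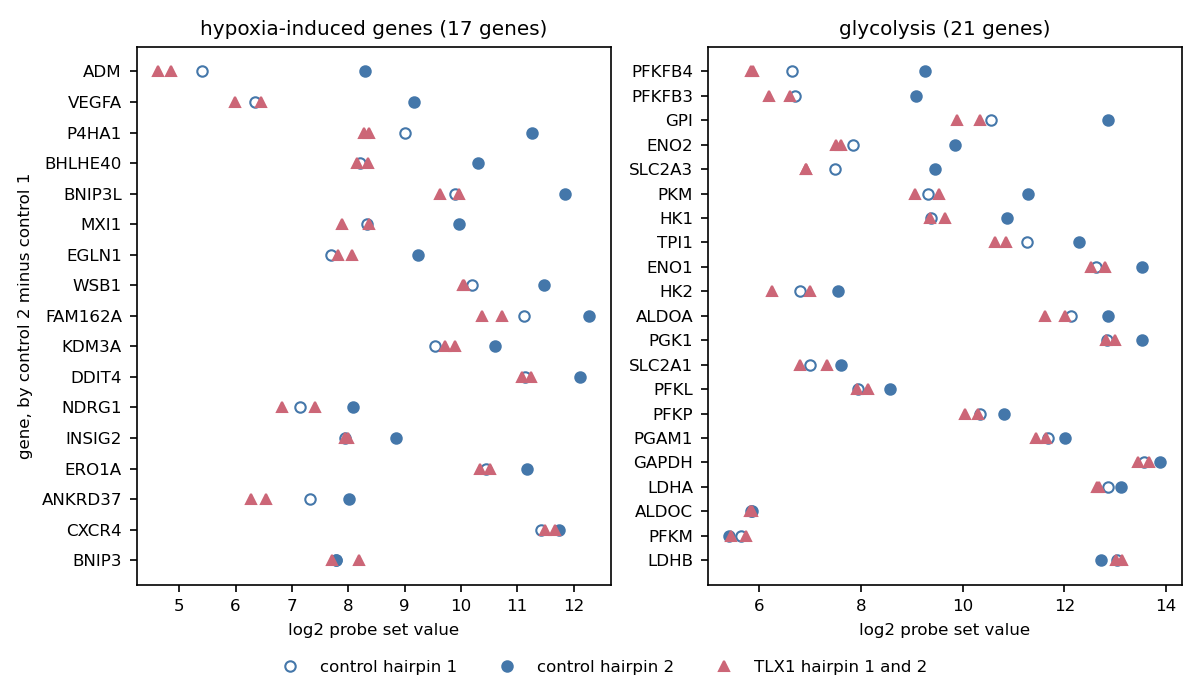
Log2 value (x axis) of the 17 hypoxia-induced and 21 glycolysis genes tested (y axis), ordered by control 2 minus control 1; open circles are control 1, filled circles control 2 and triangles the TLX1 hairpin arrays. In the upper rows control 2 stands apart, and control 1 lies near the TLX1 hairpin arrays.

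Hypoxia and glycolysis genes held the lowest medians, and control 2 was the highest array in most of these genes. Of 17 hypoxia-induced genes 0 were separated higher and 5 lower, and of 21 glycolysis genes 0 and 10, 6 of them by at least 2-fold. The shares over all genes were 13.7% and 14.5%. The medians of the 2 lists were -0.80 and -0.42. ADM, a vasodilator peptide induced by low oxygen, read 5.40 and 8.30 against 4.62 and 4.86. PFKFB4, which sets the flow into glycolysis, read 6.65 and 9.26 against 5.84 and 5.88. Its second probe set overlapped, with a difference of -0.69. SLC2A3, a glucose transporter, read 7.50 and 9.45 against 6.91 and 6.91. Control 2 was high in each, and control 1 lay between it and the TLX1 hairpin arrays.

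Control 2 exceeded control 1 by at least 2-fold in 10 of the 17 hypoxia genes and 8 of the 21 glycolysis genes, against 1.59% of all genes; control 2 was at least 2-fold lower in 1.46% of all genes and in 0 of either list. Against control 1 alone the median difference was -0.02 for hypoxia and -0.14 for glycolysis. Against control 2 alone the medians were -1.44 and -0.87. ANKRD37, a hypoxia-induced gene, read 7.31 and 8.01 against 6.28 and 6.54. Like every gene separated lower, it lay below each control, with differences of -0.91 against control 1 and -1.60 against control 2. ADM differed by -0.66 and -3.56. In the TCR experiment PFKFB4 read 8.18 to 8.64 and ADM 7.96 to 9.26, nearer control 2. Of 20 ER stress and amino acid response genes 0 were higher and 7 lower, with a median of -0.30 that was -0.04 against control 1 and -0.41 against control 2.

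Among the genes with the largest difference between the controls, chosen after their values were seen, IGFBP2 read 8.42 and 11.52 against 7.68 and 7.30, and BCL6 6.35 and 9.41 against 7.07 and 6.92. CD28, the T-cell costimulator, went the other way, at 7.81 and 4.23 against 6.97 and 6.23. The control arrays differed in these genes by 3.11, 3.06 and -3.57. In the actin 3' minus 5' probe signal, a sign of RNA length, the controls read 0.567 and 0.808 and the TLX1 hairpin arrays 0.66 and 0.825. In the same signal of GAPDH the controls read 0.0169 and -0.0101 and the TLX1 hairpin arrays 0.0416 and 0.075. The part of RNA length in these results was not tested.

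Fitting all 8 arrays in 1 model, in which the TCR experiment arrays also enter the estimate of the spread, called 16 probe sets higher (0.0389%) and 8 lower (0.0195%), from 18 genes. ADAMTS17, ID2, SLFN5, TIAM1, DPF3 and RESF1 were among the higher ones. The array pairs of the TCR experiment were more alike, at r = 0.9971 and 0.9975 against 0.9864 for the control hairpin pair. The spread in this model thus came partly from arrays that vary less than those compared. In the fit of the 4 hairpin arrays 0 probe sets passed. Of the 24 probe sets, 8 were 5-decimal rows, or 33.3% against 0.404% of all single-symbol probe sets. They belong to 4 of the 18 genes, MAP2K2, CCR9, SLA2 and DCLRE1C. The rows of MAP2K2 repeat the same array differences, as do those of DCLRE1C, so the share counts repeats.

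**Figure D5:**
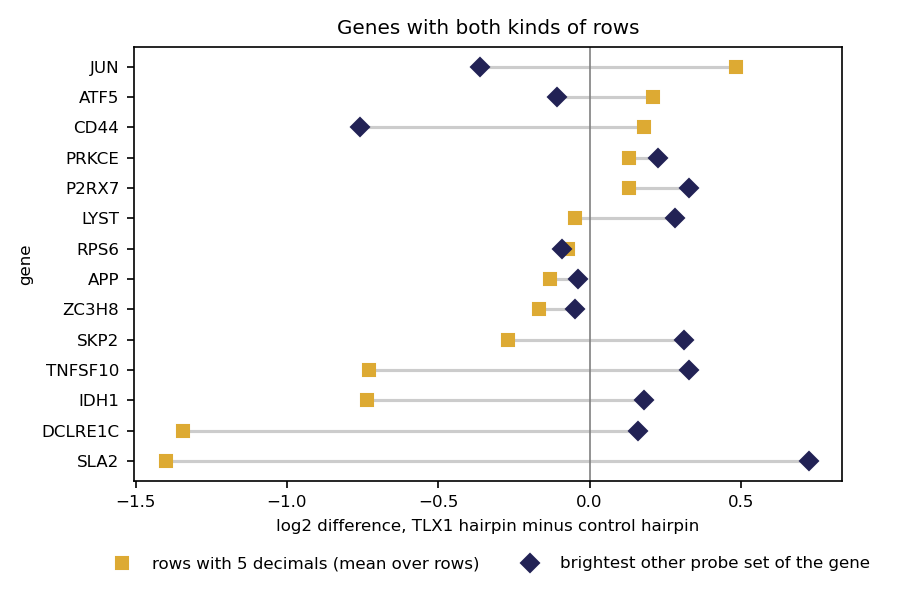
Log2 difference, TLX1 hairpin minus control (x axis), of the 14 genes (y axis) that have both kinds of row: squares are the mean of the 5-decimal rows, diamonds the brightest other probe set. The sign is the same in 5 of the 14.

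For 14 genes the table held 5-decimal rows and other probe sets, and the difference had the same sign in 5 of them. DCLRE1C, a nuclease of receptor gene rearrangement, differed by -1.34 in 3 such rows and by 0.16 in its brightest other probe set. SLA2, an inhibitor of TCR signalling, differed by -1.40 and 0.73, and TNFSF10, a death ligand, by -0.73 and 0.33.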

How the data were processed

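The authors deposited log2 probe set values of Affymetrix arrays. The submitters' processing notes name RMA, affy and R 2.9.0; the background and summary settings are not given in the sources used here. All 8 arrays shared the lowest value, 2.153, and the highest, 14.3, so a shift of all genes between arrays cannot be seen. The number of arrays limits the precision. Of 54675 probe sets, 41097 had 1 gene symbol in the platform annotation, 1801 several and 11777 none.

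The 4 hairpin arrays were fitted with limma 3.58.1 in R 4.3.3 (lmFit, eBayes, default settings; 2 residual and 3.77 prior degrees of freedom), with Benjamini-Hochberg adjustment at 0.05 and no filter. The script was tested on simulated data. Genes used the probe set with the highest mean, kept above 5.296. Named were TLX1, the 12 widest gaps per direction, up to 3 members per list and direction, and up to 6 genes called with 8 arrays; of these 139 genes the text gives a part, and genes named beyond them (such as list members that overlapped) were chosen after their values were seen. Of the 37 lists, 1 is not reported here. Members and lists were chosen with earlier results of these data known.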

Additional observations from a re-analysis of the deposited data

How the results depend on the processing

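The 0 calls at an adjusted p of 0.05 stayed 0 with the replicate block (smallest adjusted p 0.189), the filter on low values, trended and robust eBayes, array weights, renewed quantile normalization and without 5-decimal rows; 24 probe sets passed in the 8-array model and 0 to 150 with 1 array left out. The replicate block changed no call of TLX1 (adjusted p = 0.895); same-numbered arrays deviated together at r = 0.272, and nothing in the labels ties the numbers. Counts of separated genes at least 2-fold higher and lower, 30 and 50, were 106 and 177 at 1.5-fold and 1615 and 1708 with no least difference; leaving out 1 array gave 23 to 119 and 20 to 171. With all probe sets of a gene averaged, BUB3 turned to -0.0055 and DCLRE1C to -0.70, and without 5-decimal rows, an alternative chosen after seeing the data, SLA2 turned to 0.73; the cause was not tested.

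List medians that moved by more than the spread were those of proximal TCR signalling (0.30 with the mean of probe sets), ADAMTS (-0.0053) and myeloid genes (-0.11) without the filter, and T-lineage markers (0.29 without 5-decimal rows). With 1 array left out, medians ranged as follows for lists that moved: E proteins and ID proteins -0.0987 to 0.12, T-cell leukemia transcription factors -0.11 to 0.29, cortical thymocyte markers -0.56 to -0.00942, TCR complex and coreceptors 0.0136 to 0.29, dampeners of TCR signalling -0.0535 to 0.17, TCR-induced transcripts -0.29 to 0.16, Notch receptors and targets -0.24 to 0.0878, quiescence genes -0.17 to 0.31, innate and cytotoxic lymphocyte genes -0.49 to 0.52, pro-apoptotic genes -0.0984 to 0.16, p53 targets -0.0165 to 0.14, DNA replication -0.25 to 0.00454. For the others of them the ranges were mitosis and spindle checkpoint -0.0912 to 0.0431, MYC targets and ribosome biogenesis -0.21 to 0.25, hypoxia-induced genes -1.44 to -0.0239, heat shock genes 0.0359 to 0.26, interferon response 0.025 to 0.24, MHC and antigen processing -0.10 to 0.11, NF-kB subunits and targets -0.23 to 0.20, ADAMTS metalloproteases -0.0855 to 0.25, GIMAP GTPases 0.13 to 0.99, HOXA and HOXB genes -0.16 to 0.0554, T-lineage identity markers 0.0504 to 0.32, myeloid and granulocyte markers -0.18 to 0.0548. The 8-array model and array weights were not run for list medians or for the separated counts, nor the block for list medians, since none of these alters an array's value. The number of arrays, 2 a group, limits every value.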
